A study of Homo sapiens with 2 samples.

Results

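MDM2, MDM4, PPM1D and CCNG1 encode proteins that hold the tumour suppressor p53 in check, and their expression was compared between cells given an siRNA against FGF-AS and cells given a negative control siRNA. All probe sets annotated to exactly 1 of these 4 gene symbols were taken, which gave 19 probe sets of the 41091 with a single symbol: 10 for MDM2, 6 for MDM4, 2 for PPM1D and 1 for CCNG1. No probe set annotated to several symbols named any of them. The 4 genes were selected on their signals in this same comparison, the lower MDM2 and p53 target signals with FGF-AS siRNA, so their values are a description and no test was made.

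Both groups were Seg-1 cells, which per the labels' protocols are the lung line H460, and each group was 1 culture on 1 Affymetrix Human Genome U133 Plus 2.0 array. H460 is widely used as a line with intact p53. One culture was transfected with negative control siRNA, which matches no known gene sequence. The other was transfected with FGF-AS siRNA, directed at the transcript antisense to the fibroblast growth factor 2 gene. Both cultures received the lipid transfection reagent and were harvested at 72 hours, and neither an untransfected culture nor a second siRNA against FGF-AS was analysed here. The siRNA was used at 25 to 200 nM, but the labels do not say which concentration lies behind which array.

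p53 is a transcription factor that stops the cell cycle or starts cell death after stress. MDM2 is the ubiquitin ligase that marks p53 for destruction, and because p53 switches on the MDM2 gene the pair form a negative feedback loop. MDM4 (also called MDMX) is a close relative of MDM2 that binds and masks the activating part of p53 and joins MDM2 in a complex. PPM1D (WIP1) is a phosphatase that removes the phosphate marks which kinases place on p53 and MDM2 after damage. CCNG1 encodes cyclin G1, which brings the phosphatase PP2A to MDM2. MDM2, PPM1D and CCNG1 are all classical genes that p53 induces, whereas most MDM4 RNA is made without p53.

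MDM2 has a pair of promoters, and the downstream one is known for its p53 response. The reference lists 4 transcription starts for MDM2 and 2 for CCNG1. Starts lying close together were grouped, and the first of each group was used. The 250 bases before this start are shown for an upstream and a downstream MDM2 group, so that the difference in p53-like sequence can be seen. They are also shown for PPM1D, whose promoter is known for a cyclic AMP response element. Sequences are those of RefSeq (GRCh38.p14), plus strand, 5′ to 3′. The MDM2 windows are chr12:68807922-68808171 and chr12:68808767-68809016, 845 bases apart, and the PPM1D window is chr17:60599943-60600192. Capitals mark stretches of 20 bases with at most 3 mismatches to a pair of joined p53 half-sites with no spacer, and, in PPM1D, TGACGTCA.
MDM2 upstream start: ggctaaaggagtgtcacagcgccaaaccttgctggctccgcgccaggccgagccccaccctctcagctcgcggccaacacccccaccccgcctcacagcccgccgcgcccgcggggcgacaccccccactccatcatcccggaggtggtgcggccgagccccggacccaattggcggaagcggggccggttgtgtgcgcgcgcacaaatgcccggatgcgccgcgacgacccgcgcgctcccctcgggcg
MDM2 downstream start: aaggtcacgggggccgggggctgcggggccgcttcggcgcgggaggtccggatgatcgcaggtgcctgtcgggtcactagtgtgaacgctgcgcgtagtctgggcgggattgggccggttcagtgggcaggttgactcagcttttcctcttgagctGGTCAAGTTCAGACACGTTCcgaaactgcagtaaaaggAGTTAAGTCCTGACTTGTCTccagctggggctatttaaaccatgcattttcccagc
PPM1D start: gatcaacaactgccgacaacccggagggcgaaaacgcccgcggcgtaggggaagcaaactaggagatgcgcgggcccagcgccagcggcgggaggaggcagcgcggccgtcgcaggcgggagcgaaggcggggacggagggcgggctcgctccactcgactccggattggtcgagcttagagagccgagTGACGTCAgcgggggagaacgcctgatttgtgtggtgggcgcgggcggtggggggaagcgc

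The downstream MDM2 window held 2 such stretches. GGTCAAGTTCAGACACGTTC had 2 mismatches and ended 74 bases before the start, and AGTTAAGTCCTGACTTGTCT had 3 mismatches and ended 36 bases before it. Of all 35116 windows in the table, 0.561% held a stretch with at most 2 mismatches and 4.36% one with at most 3. The search covered both strands, since the p53 consensus reads the same on each. The best stretch in the upstream MDM2 window had 5 mismatches, as had the best in MDM4 (chr1:204516156-204516405), and 64.5% of windows did at least as well. The best in PPM1D had 4 mismatches, which 22.1% of windows matched or bettered, and the best in CCNG1 (chr5:163437321-163437570) had 6, which 95.7% did. The element TGACGTCA, which is the same on both strands, lay 53 bases before the PPM1D start and was found in 1.65% of windows. A match describes the letters only, and no match in these short windows says nothing of sites elsewhere in the genes.

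The values are probe set signals on a linear scale, and a probe set is a group of short probes that together report 1 transcript or a part of it. Differences are given as log2 ratios of FGF-AS over control siRNA after 6.1 was added to every signal, so that a negative ratio is a lower signal with FGF-AS siRNA. The offset of 6.1, the 25th percentile of signals, keeps signals near 0 from giving extreme ratios and understates the change of dim probe sets. A probe set was called measured when the mean of both arrays was at least 24.3, the median signal, and bright when it was at least 144.0, the 75th percentile. Probe sets for the same gene disagreed in their log2 ratios with an SD of 0.36 when bright and of 0.58 when measured but dimmer. It is the only error available and covers neither differences between cultures nor between hybridisations. Both probe sets annotated to NUDT6, the gene from which FGF-AS is transcribed, end in _s_at. They gave 376.9 and 267 on the control array against 104.5 and 77.8 on the FGF-AS siRNA array, and which transcript of the locus they report was not analysed here.

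MDM2 was lower with FGF-AS siRNA on all 10 of its probe sets, and 54.9% of all probe sets on the arrays were lower. Of its 8 measured probe sets 7 were at least 2-fold lower, a size reached by 5.38% of measured probe sets. The median log2 ratio of those 8 was -1.42, or 2.68-fold lower, with an SD of 0.88 between them. These shares come from the contrast that led to the choice of MDM2 and are given for scale only.

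The brightest MDM2 probe set, 229711_s_at, gave a signal of 1649.7 on the control array and of 816.7 on the FGF-AS siRNA array (49.5%). Its log2 ratio of -1.01 was 2.82 times the SD of a bright probe set. The other bright one, 225160_x_at, gave 791 and 288.6 (36.5%) and a log2 ratio of -1.44. At percentile 0.694 of the bright probe sets, this second ratio lay further out than the first, at percentile 2.54. Among bright probe sets 2.58% were at least 2-fold lower, as both of these were. They put the MDM2 signal at or under 49.5% of control. The first lies close to the 2-fold line, and 5 of the 10 other settings moved it just short of 2-fold, to between -0.99 and -0.95.

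The 6 dimmer measured probe sets of MDM2 went the same way. Signals on 244616_x_at were 159.5 and 95.4 (log2 ratio -0.71), and it was the only measured MDM2 probe set short of 2-fold. Signals on 217373_x_at were 160.7 and 47.8 (-1.63), and on 217542_at 93.6 and 37 (-1.21). These 3, like the bright pair, stayed above the signal minimum on both arrays. Over those 5 probe sets the median was -1.21, from -1.63 to -0.71, with 4 at least 2-fold lower.

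The remaining 5 MDM2 probe sets read under the minimum of 24.3 with FGF-AS siRNA, so their ratios depend on the offset. On 205386_s_at the signal was 75.6 on the control array and 17.1 on the other (-1.82), and on 238733_at it was 64.7 and 20.6 (-1.41). The widest gap was on 211832_s_at, with 84.2 and 1.4, for which the log2 ratio of -3.59 became -5.15 with an offset of 1 and -2.08 with an offset of 24.3. These 3 counted as measured through the control array alone, which favours lower ratios. The last 2, 205385_at (25.6 and 0.9) and 237891_at (11.3 and 0.9), had means under the minimum and were not counted as measured. All 5 were lower, and no MDM2 probe set on either side of the minimum was higher with FGF-AS siRNA.

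The letters in a probe set's name bear on how far its signal belongs to one transcript. An ending in _s_at marks probes shared by several transcripts, and _x_at marks probes that can bind other sequences as well. Of the 8 measured MDM2 probe sets only 217542_at and 238733_at carry neither ending. They were 2-fold or more lower like the bright ones, at -1.21 and -1.41, although both were dim. Which exons or promoter of MDM2 each probe set covers was not analysed here, so RNAs from its upstream and downstream starts cannot be told apart.

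**Figure D1:**
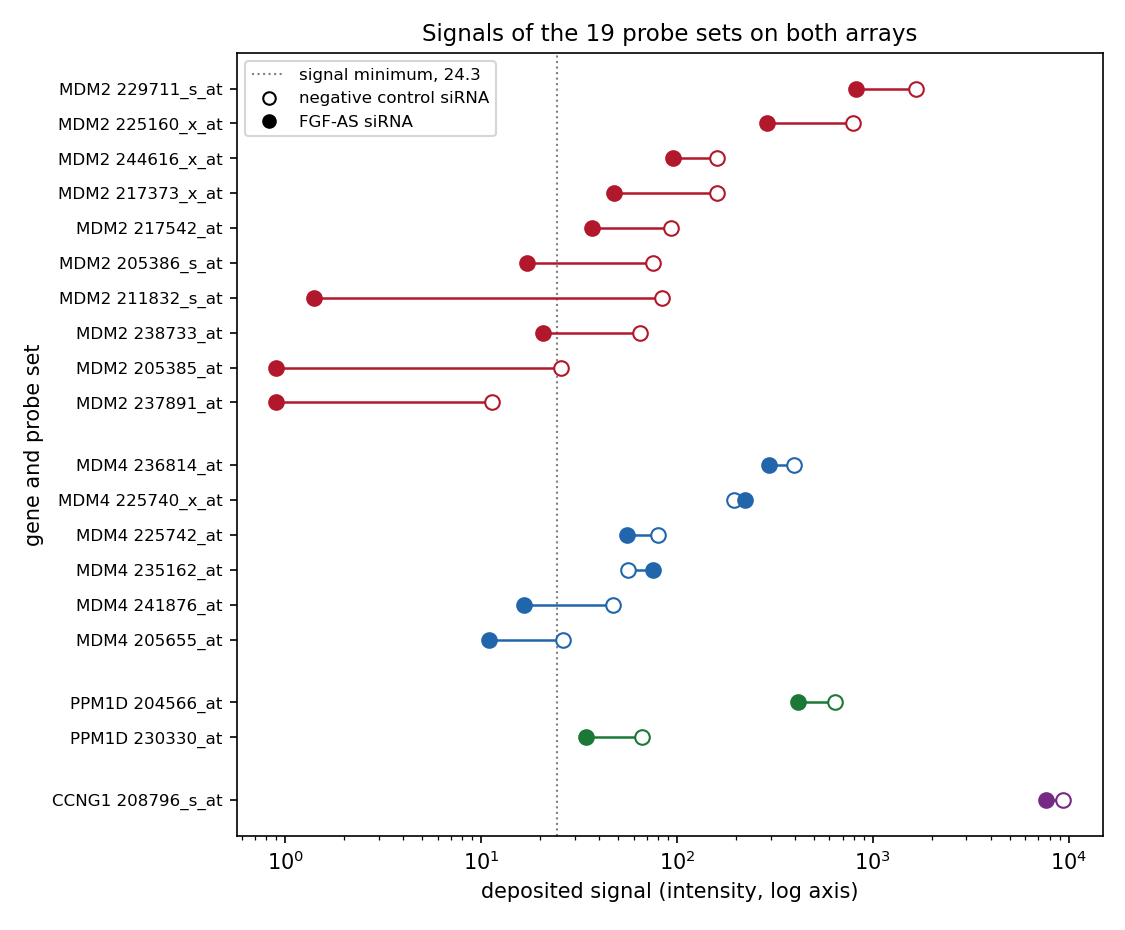
Signals of the 19 probe sets of MDM2, MDM4, PPM1D and CCNG1 on a log axis, open circles for negative control siRNA and filled circles for FGF-AS siRNA, 1 array each, with the signal minimum of 24.3 as a dotted line. All 10 MDM2 probe sets have the filled circle to the left, while for MDM4 it lies to the right on 225740_x_at (195.3 to 222.3) and 235162_at (56.4 to 75.4).

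MDM4, the relative of MDM2, had no common direction. Of its 6 probe sets 4 were lower and 2 were higher with FGF-AS siRNA, and of the 5 measured ones 3 were lower (background 57.0% of measured probe sets). The median over those 5 was -0.42, with an SD of 0.64 and a range from -1.24 to 0.38. Its brightest probe set, 236814_at, read 395.3 and 294, 74.4% of control, with a log2 ratio of -0.42 that was 1.17 times the SD of a bright probe set. The other bright one, 225740_x_at, read 195.3 and 222.3, a log2 ratio of 0.18 and smaller than that SD. Among the bright probe sets of MDM4 there was thus 1 in each direction, neither of them past 1.5-fold.

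The dimmer MDM4 probe sets were divided as well. On 225742_at the signals were 80.3 and 55.8 (-0.48), and on 235162_at they were 56.4 and 75.4 (0.38), both within the SD of 0.58. On 241876_at they were 47.3 and 16.5 (-1.24), the only MDM4 ratio past 2-fold, and with FGF-AS siRNA this probe set read under the signal minimum. The dimmest, 205655_at, read 26.1 and 11 (-0.91), and its mean was under the minimum. Where both arrays were above the minimum, 4 MDM4 probe sets remained, 2 lower and 2 higher, with a median of -0.12. A difference in MDM4 RNA was not resolved by these arrays.

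PPM1D was lower on both of its probe sets by less than 2-fold. Its bright probe set, 204566_at, gave 642.5 on the control array and 415 on the FGF-AS siRNA array (64.6%). The log2 ratio of -0.62 was 1.74 times the SD of a bright probe set and lay at percentile 8.38 of bright probe sets. The dim one, 230330_at, gave 66.2 and 34.3 (51.8%), and its log2 ratio of -0.84 was 1.46 times the SD for dim probe sets. Both signals of both probe sets were above the minimum, and the median was -0.73 (1.66-fold lower). Of measured probe sets 15.3% were at least 1.5-fold lower, as both PPM1D probe sets were.

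CCNG1 gave a high signal on both arrays, and on brightest probe sets its difference was the smallest of the 4 genes. Its only probe set, 208796_s_at, gave 9360.5 on the control array and 7640.1 on the FGF-AS siRNA array (81.6%). The log2 ratio of -0.29 was 0.82 times the SD of a bright probe set and lay at percentile 23.9 of bright probe sets. Among the 340 probe sets with a mean signal within 1.5-fold of that of CCNG1, a comparison made after the values were seen, the log2 ratios had a median of 0.01 and an SD of 0.19, against an SD of 0.43 over all 13694 bright probe sets. CCNG1 lay at percentile 5.88 of these, with 19 of them lower. No second probe set could check this difference.

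**Figure D2:**
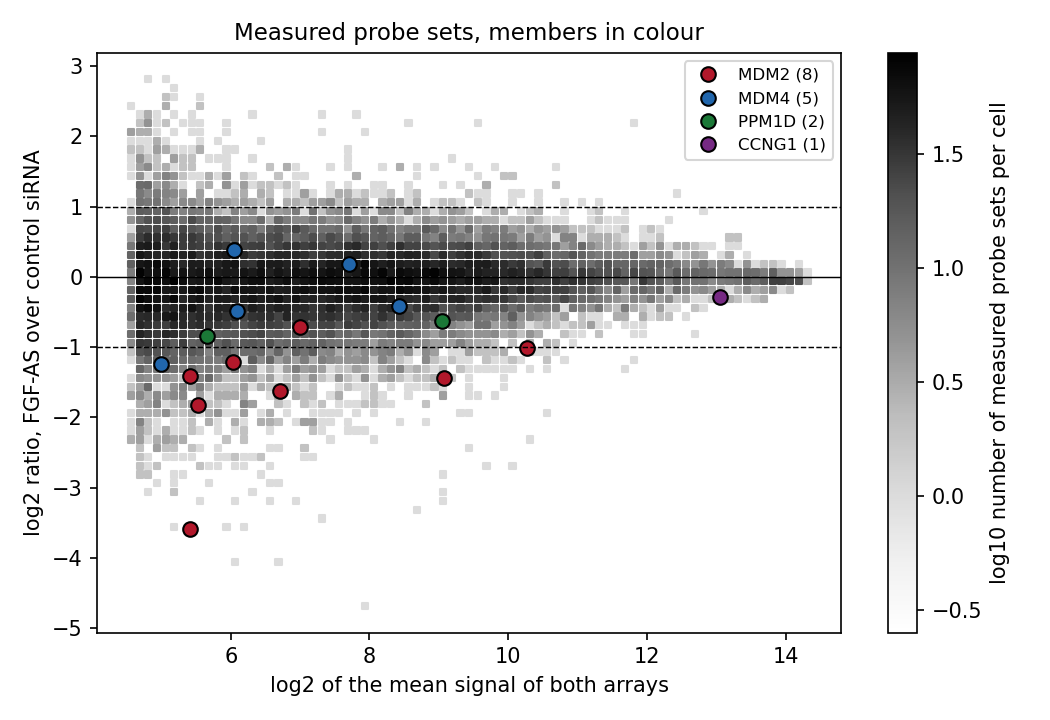
Log2 ratio of FGF-AS over control siRNA against log2 of the mean signal for the 27106 measured probe sets, as grey cells shaded by number, with the 16 measured probe sets of the 4 genes in colour and dashed lines at 2-fold. The MDM2 points lie between -3.59 and -0.71, the MDM4 points between -1.24 and 0.38, and the CCNG1 point at -0.29 near the right-hand end.

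Set side by side on their brightest probe sets, the log2 ratios were -1.01 for MDM2, -0.62 for PPM1D, -0.42 for MDM4 and -0.29 for CCNG1. All 4 of these probe sets were bright. From PPM1D on, neighbours in this order differed by less than 0.36, the SD of a bright probe set, and MDM2 and PPM1D by slightly more. That SD is for a single probe set, and a difference between 2 of them varies more. Over measured probe sets the median log2 ratio was -1.42 for MDM2 and -0.42 for its relative MDM4. Among 12282 measured genes, each represented by its brightest probe set, MDM2 ranked 323rd lowest, PPM1D 1006th, MDM4 1922nd and CCNG1 2888th. Of those genes 2.69% were at least 2-fold lower and 51.8% were below 0, with a median of -0.02. Only MDM2 among the 4 passed 2-fold on its brightest probe set, and by a small margin.

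Probe sets of the same gene can be read together. Among the 447 genes with at least 5 measured probe sets, MDM2 had the second lowest median, and 21.5% of these genes had all probe sets below 0. All of them at least 1.5-fold lower was found for 4 genes (0.895%), a count made after the values were seen: MDM2, FAS, ZMAT3 and GLIPR1. MDM2 was chosen on this contrast, and 3 of its 8 probe sets counted as measured through the control array alone. FAS reached 5 only through 233820_at (47.6 to 16.2), which did so as well. With the minimum applied to each array, an alternative added after the data were seen, 3 of 360 genes remained: GLIPR1, MDM2 and ZMAT3. FAS encodes the death receptor CD95 and ZMAT3 an RNA-binding zinc finger protein, both known p53 targets, and GLIPR1, known as RTVP-1, has also been described as one. Each of the other 3 had 5 measured probe sets, with medians of -0.98 for FAS, -1.07 for ZMAT3 and -1.22 for GLIPR1. Under quantile normalization MDM2 left this group (244616_x_at then stood at -0.57). At the minimum of 144.0 the group was GLIPR1 alone of 77 genes, since MDM2 kept 2 probe sets.

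GLIPR1 was bright throughout. On 214085_x_at it read 967.3 and 447.8, on 204222_s_at 682.1 and 350.1, on 226136_at 519.2 and 219.4, on 226142_at 510.1 and 181.8, and on 204221_x_at 338.8 and 122.7. All 5 were lower, and their signals with FGF-AS siRNA ran from 35.6% to 51.3% of control. By the median over probe sets alone, the 5 genes nearest to MDM2 among those with at least 3 measured probe sets were LMAN1 (-1.43), WDR59 (-1.41), AFF4 (-1.40), COL3A1 (-1.39) and SOS2 (-1.38). This likeness rests on 1 number from 2 arrays. For LMAN1 (3713.4 to 3998.6) and AFF4 (782.3 to 826.7) the brightest probe set was not lower at all, and only COL3A1, a fibrillar collagen gene, had all probe sets clearly lower (-1.54 to -0.91).

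Other genes that p53 induces were mostly lower too. The list held 45 genes without the 4 feedback genes, and it was drawn up with earlier results of these data known, so its direction is no independent evidence. Of its 40 measured genes 32 were below 0, against 51.8% of all measured genes, and the median was -0.38, against -0.02. With the arrays rescaled by median centring, 2% trimmed mean, quantile normalization or loess, 29 of the 40 were below 0. At least 2-fold lower were 5 genes (2.69% of all), none was 2-fold higher (2.01% of all), and 13 were at least 1.5-fold lower (9.44% of all). Among the 21 with several measured probe sets, 15 had every one below 0, which held for 31.5% of all such genes. On brightest probe sets 5 of the 40 had a lower ratio than MDM2, while PPM1D lay below the list's median and CCNG1 above it.

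The members past 2-fold were POLH, a DNA polymerase that bypasses lesions (162.5 to 48.4, log2 ratio -1.63, but up to 0.07 on its other probe sets), SESN2, a sestrin gene of the stress response (733.5 to 247.7, -1.54), and TP53I3, an oxidoreductase gene (1332.2 to 584.6, -1.18). FBXW7, a ubiquitin ligase subunit that targets cyclin E (324 to 150.8, -1.07, but 0.05 on another probe set), and ZMAT3 (595.2 to 279.8, -1.07) were the others. Under quantile normalization 3 of the 5 remained past 2-fold. CDKN1A, the p21 gene whose product halts the cell cycle, gave 2237.4 and 1236.4 (-0.85), and NINJ1, a membrane protein gene, 1790 and 1013.2 (-0.82). BAX, a pore-forming death protein, read 718.7 and 467.2 (-0.61, and -0.90 on its other probe set).

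The exceptions above 0 included DRAM1, a lysosomal membrane protein gene (255.5 to 422, 0.71), LIF, a cytokine gene (403.9 to 594.4, 0.55), and GDF15, a stress cytokine gene (3998.2 to 5643.3, 0.50, and 0.42 on its other probe set). PMAIP1, which encodes the death protein NOXA, stood at 0.03 (697.8 to 710.2). The targets therefore did not all move with MDM2, and the spread across them had an SD of 0.51.

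**Figure D3:**
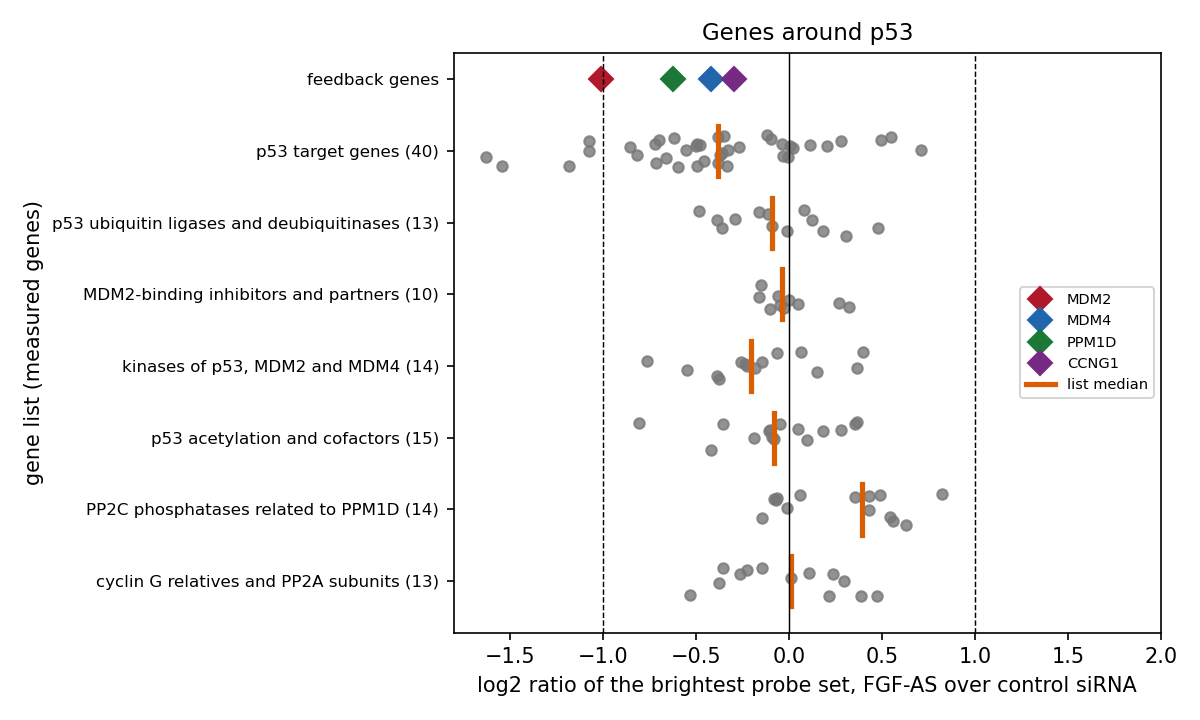
Log2 ratios of the brightest probe set of each measured gene in 7 lists around p53 (grey points, numbers of genes in brackets, orange bars for medians) and of the 4 feedback genes (diamonds), with dashed lines at 2-fold. The p53 targets centre on -0.38 and the PP2C phosphatases on 0.39, while the other lists centre between -0.21 and 0.01.

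Of 13 measured ubiquitin ligases and deubiquitinases of the p53 system 8 were below 0 on their brightest probe sets, against 51.8% of all measured genes. The median was -0.09, and none passed 1.5-fold on its brightest probe set. RCHY1 (Pirh2), a ligase that p53 induces, read 803.2 and 625.2 (-0.36) and was below 0 on all 4 of its measured probe sets, down to -0.74. Other probe sets ran to -1.71 for HUWE1, a ligase of p53 (-0.09 on the brightest), and from -1.22 to -0.73 for SKP2 (0.31 on the brightest). COP1, a further such ligase, read 541.3 and 412.7 (-0.39, and -0.22 on the other), and USP7, which removes ubiquitin from p53 and MDM2, read 1200.7 and 1075.6 (-0.16). OTUD5, a deubiquitinase, stood furthest below 0 (282.6 to 200.4, -0.48), and TRIM28, a corepressor that works with MDM2, furthest above (2330.1 to 3256.8, 0.48). The median of this list was -0.30 with the mean over probe sets and 0.14 when _s_at and _x_at probe sets were left out.

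Of 18 listed binding partners of MDM2 10 were measured, all within 1.5-fold on their brightest probe sets, with 6 below 0 (51.8% of all measured genes) and a median of -0.04. The ribosomal proteins that bind MDM2 when ribosome assembly fails were near 0, with RPL11 at -0.03 (12551.9 to 12316.9) and RPS7 at -0.05 (16051.5 to 15539.5). NPM1 (nucleophosmin) stood at -0.15 and NCL (nucleolin) at 0.27. ARRB1, an arrestin gene, was dim and furthest from 0 (62.4 to 79.5, 0.32). The sign of this list's median changed with the scaling, at 0.02 under median centring and 0.01 with the 2% trimmed mean.

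The kinases that phosphorylate p53, MDM2 or MDM4 had a median of -0.21, with 10 of 14 below 0 (51.8% of all measured genes) and 1 at least 1.5-fold lower (9.44% of all). That one was CHEK1, the checkpoint kinase CHK1 (567.2 to 331.6, -0.76), and its 3 other measured probe sets ran from -0.73 to -0.06. HIPK2, which marks p53 for cell death genes, read 1267.9 and 865 (-0.55) and was below 0 on all 8 of its measured probe sets, the others from -1.31 to -0.45. ATM and CHEK2, which PPM1D opposes, read 175.3 and 147.8 (-0.24) and 298.9 and 227.8 (-0.38). CSNK1A1, the casein kinase that binds MDM4, stood at -0.14, and AKT1 was furthest above 0 at 0.40 (782 to 1033.8). With _s_at and _x_at probe sets left out the median of these kinases was 0.01.

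Acetylases, deacetylases and other cofactors of p53 had a median of -0.08 over 15 genes, 9 of them below 0 (51.8% of all measured genes), and the median was 0.01 under quantile normalization. PML, which forms nuclear bodies and draws MDM2 into nucleoli, was the only one past 1.5-fold on its brightest probe set (187.3 to 104.6, -0.80), and all 8 of its measured probe sets were below 0. PPP1R13L, an inhibitor of p53, was dim at -0.42. EP300, the acetylase p300, stood at 0.37 and CREBBP, its relative, at -0.35 (but 0.18 on its other probe set).

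PPM1D belongs to the PP2C family of phosphatases. Of 14 measured relatives 5 were below 0, against 51.8% of all measured genes, and 9 above, with a median of 0.39. On brightest probe sets none was at least 1.5-fold lower and 2 were at least 1.5-fold higher (7.91% of all measured genes). These were PPM1E (42.4 to 79.8, 0.82), which was dim, and PPM1A, which acts in stress kinase signalling (313.7 to 488.6, 0.63, with other probe sets from -1.11 to 0.86). PPM1G, linked to splicing, read 883.9 and 1305.1 (0.56), and PHLPP1, a phosphatase of AKT, 109.6 and 162.5 (0.54). The most negative was ILKAP at -0.14 (401.3 to 362.6). Among the 8 bright relatives 4 were below 0 and the median was 0.21, and with the mean over probe sets it was 0.15. On brightest probe sets PPM1D, which was chosen on this contrast, lay at -0.62, outside the range of these 14 genes, from -0.14 to 0.82. Other probe sets of the relatives ran lower, to -1.11 for PPM1A and to -0.55 for PPTC7.

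Relatives of cyclin G1 and the subunits of PP2A had a median of 0.01 over 13 genes, 6 of them below 0 (51.8% of all measured genes) and none past 1.5-fold on its brightest probe set. The median was -0.07 at the minimum of 144.0 and -0.16 without _s_at and _x_at probe sets. CCNG2, the closest relative of CCNG1, read 445.8 and 342 (-0.38, with 4 of 5 measured probe sets below 0), and CCNI, a further atypical cyclin, 4163.5 and 3261.8 (-0.35). PPP2R1A, the PP2A scaffold subunit, was furthest below 0 (1048.6 to 723.4, -0.53) and PPP2R5B, 1 of the regulatory subunits that cyclin G1 binds, furthest above (50.2 to 72.2, 0.48, but -0.68 on its other probe set). The other such subunits were PPP2R5A (0.01), PPP2R5C (-0.26), PPP2R5D (0.22) and PPP2R5E (0.11). Their other measured probe sets ran from -0.04 to 0.36 for PPP2R5C and from -0.20 to 0.36 for PPP2R5E, and stood at 0.67 for PPP2R5D. The CCNG1 ratio of -0.29 lay within the range of this group.

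Genes beside the 4 in the genome were below 0 about as often as all genes. Of the 40 nearest measured protein-coding genes, 5 on each side of each member in gene order, 18 were below 0 and 22 above (51.8% of all measured genes were below 0), with a median of 0.04. At least 1.5-fold higher were 8 of the 40 (7.91% of all measured genes) and 4 were at least 1.5-fold lower (9.44% of all). At least 2-fold higher were 2 (2.01% of all), LRRN2 and TMCC2 (14.4 to 49.6). These, SLC60A1 (20.2 to 34) and NACA2 (19.6 to 36.3) counted as measured through the FGF-AS siRNA array alone, which favours higher ratios. The 10 around MDM2 had a median of -0.04, and none was 2-fold lower, a size that 2.69% of all genes reached. Of the 10 around MDM4, 7 were above 0 and 4 at least 1.5-fold higher, with a median of 0.27. LRRN2, TMCC2 and SLC60A1 are among those 4. SLC35E3, directly before MDM2, read 755.1 and 445.5 (-0.75). CPM, directly after it, was dim (41.4 to 33.5) and stood at -0.26, within the SD of 0.58 for dim probe sets. Both flanking genes were below 0, as 51.8% of all measured genes were. NUP107, the next one out beyond SLC35E3, read 491.1 and 832.2 (0.75), and CPSF6, the next beyond CPM, stood at 0.29. Around CCNG1, NUDCD2 read 2040.4 and 2149.5 (0.07) and HMMR 1180.7 and 1254.2 (0.09). Beside PPM1D, APPBP2 stood at -0.01 and BCAS3 at -0.64, and beside MDM4, PIK3C2B stood at 0.01 and the dim LRRN2 at 1.69 (9.2 to 43.2).

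Signals were also set against the p53-like stretches in the promoter windows. Of 10030 measured genes with a window, 5212 were below 0 and 4812 above. A stretch with at most 2 mismatches was held by 58 of them, MDM2 included. Of these, 29 were below 0 and 29 above, with a median of 0.01 against -0.02 for all. At least 1.5-fold lower were 6 of the 58 and none was 1.5-fold higher, against 906 lower and 778 higher of the 10030. With at most 3 mismatches there were 509 genes, 270 below 0 and 238 above, with a median of -0.03. Of these, 49 were at least 1.5-fold lower and 31 higher, and 19 were at least 2-fold lower and 7 higher, against 252 and 190 of the 10030. The 345 genes with TGACGTCA, PPM1D included, had a median of -0.05 and 193 were below 0, against 5212 of the 10030. A window of 250 bases leaves out the introns and distal regions where many p53 sites lie.

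Markers were looked at for the identity of the cells. Of 6 general epithelium markers 5 were measured, 4 of them bright. The keratin genes KRT8 and KRT18 had the highest signals (3475.7 and 3780.9, and 10152.5 and 9327.2). EPCAM was dim (34 and 43.8), and CDH1 had a mean under the minimum (0.9 and 18.4). Of 9 lung epithelium markers 4 were measured, and only HOPX was bright (766.8 and 519.4). The lung lineage factor NKX2-1 had a mean under the minimum (24.9 and 11.8). Of 6 fibroblast markers 3 were measured, all below 0 (51.8% of all measured genes), with summed signals of 523.2 and 287.2. COL3A1 gave 316.4 and 104.6 of these sums, and COL1A1 gave 164.3 and 151.6 (log2 ratio -0.11). DCN was dim (42.5 and 31, -0.39). COL1A2 (6.4 and 17.9), LUM (8.1 and 6.2) and PDGFRB (7.3 and 28.8) had means under the minimum. Of 6 leukocyte markers 2 were measured and dim (summed signals 71.8 and 69.5), and PTPRC had a mean under the minimum. Squamous markers (1 of 6 measured, SPRR1A, 77.1 and 47.7) and intestinal or glandular markers (4 of 7, summed signals 132.4 and 80.4) were dim. Their part in the MDM2 result was not tested, and a smaller share of expressing cells cannot be told from less RNA per cell.

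**Figure D4:**
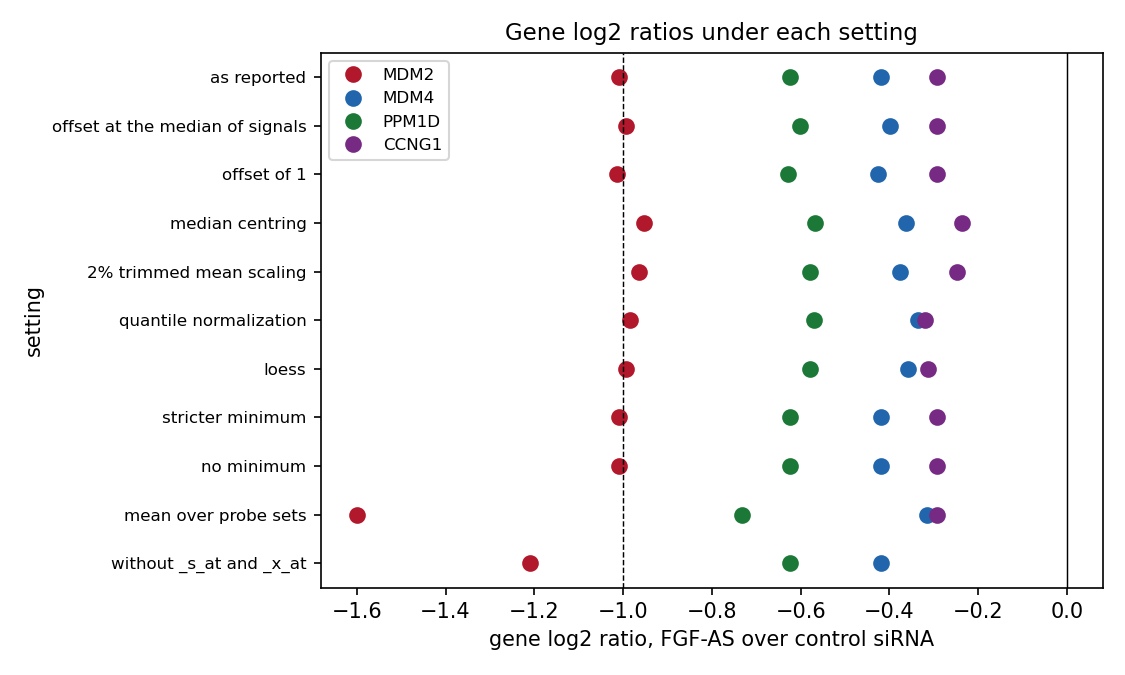
Gene log2 ratios of MDM2, MDM4, PPM1D and CCNG1 as reported and under 10 other settings, with the dashed line at 2-fold lower. All points lie below 0, MDM2 between -1.60 and -0.95, PPM1D between -0.73 and -0.57, MDM4 between -0.43 and -0.32 and CCNG1 between -0.32 and -0.24 (no value without _s_at and _x_at).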

How the data were processed

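RNA of 2 cultures was measured on 1 array each, grouped by the siRNA named in the labels. Probe set intensities on a linear scale were used as the authors deposited them; per the submitters' processing notes, GCOS and MAS5 were involved, and how the arrays were scaled against each other is unknown (medians 25.6 and 23.1). Of 54613 non-control probe sets 41091 had 1 gene symbol, 1801 several and 11721 none here. Symbols were updated by gene identifier through RefSeq (GRCh38.p14). The log2 ratios, the offset, the minimum, gene lists, neighbours in gene order and promoter matches were computed from these values with Python 3.11.15, numpy 2.4.6, pandas 2.3.3 and statsmodels 0.14.6. Named were all probe sets of the members, list genes past 2-fold and up to 4 furthest from 0 per list, the 5 genes nearest to MDM2 and NUDT6; others (among them GLIPR1, FAS, CDKN1A, the neighbours and further list genes) were picked with their values in view. The members and lists were chosen with earlier results of these data known. With 1 array per group no p-value was computed, and precision is limited by the number of arrays. The ratio procedure was tested on simulated data with the same spread for all probe sets. Only bright probe sets were scored there, so that test does not cover dim ones.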

Additional observations from a re-analysis of the deposited data

How the results depend on the processing

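The member ratios, list medians and counts were recomputed under 10 alternatives. The only values past 2-fold, the MDM2 ratio and the MDM2 median over probe sets, kept their sign. Several list medians near 0 changed sign, as given above. No paired analysis was possible because each group holds 1 array. The brightest MDM2 probe set passed 2-fold as deposited, with an offset of 1 and at either other minimum. It fell just short under median centring (-0.95), 2% trimmed mean scaling (-0.97), quantile normalization (-0.98), loess (-0.99) and an offset at the median of signals (-0.99). With the mean over probe sets MDM2 stood at -1.60 and the p53 targets at a median of -0.50. The number of p53 targets at least 2-fold lower was 3 of 40 under quantile normalization (SESN2, TP53I3 and POLH). Without _s_at and _x_at it was 3 of 28 (ZMAT3, FAS and POLH). CCNG1 has no value without _s_at and _x_at. The median of MDM4 ran from -0.45 to -0.12. The share of higher genes among those past 2-fold was 42.8% as deposited and from 37.4% to 60.4% over the alternatives. Depth has no counterpart on these arrays, and detection calls were not used here, so how far dim signals exceed background is unknown.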
